A study of Mus musculus with 49 samples.

Results

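Frontal cortex of mice labelled AKO (amylin knockout) was compared with that of wild-type (WT) mice, both after 4 months of high fat diet. The comparison used 20 of the 49 RNA sequencing libraries of the series, 10 labelled AKO and 10 WT, chosen by group label alone. The remaining libraries came from WT mice after 2 months of the diet (9 libraries) and from mice with a conditional human amylin transgene given vehicle or tamoxifen (10 libraries each), and they are used here for levels only. All mice of the series ate the high fat diet, so no value refers to ordinary chow. The labels give no strain, sex, age, litter or collection time, and they do not say how the amylin gene was targeted. Titles carry a number per library whose meaning is not given, so p-values reflect library-to-library spread, which may be partly technical. Levels are log2(reads divided by a size factor, plus 1), called log2 level below, and differences are libraries labelled AKO minus WT on that scale, on which the change of a gene with few reads appears smaller than it is.

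Amylin is co-secreted with insulin by the beta cells of the pancreas. It acts on the brain through calcitonin receptors paired with receptor activity-modifying proteins to limit food intake. In cortical neurons, synaptic input and calcium entry switch on immediate early genes within minutes. Those encode transcription factors that in turn drive slower effector genes for secreted factors, enzymes and feedback inhibitors of signalling. The immediate early genes are given below mainly as a level beside the other results, and single ones where another gene list holds them.

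Iapp, which encodes amylin, was the first gene examined because the label names its loss. The libraries labelled AKO held 36 to 116 Iapp reads each, 596 in 462.2 M reads (M for 1e+06), and no WT library at 4 months held one in 409.0 M. With 3 reads taken as the limit for the WT group, the Iapp share was at least 176-fold higher in the group labelled AKO, the opposite of what the label says. Iapp overlaps Slco1a5 on the other strand, and read positions within it were not analysed here. The group is therefore called "the libraries labelled AKO", and every direction below holds for the labels as deposited.

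Depth was 31.7 to 75.6 M reads in the libraries labelled AKO (median 39.8) and 31.0 to 52.9 M in WT (median 37.8). The cortical label was checked against its markers. All 14 excitatory neuron markers were tested, and their summed normalised reads were 271000 to 326000 in the libraries labelled AKO, against 264000 to 336000 in WT. Markers of neighbouring tissue were present too. The summed olfactory mucosa markers reached 1350 to 34600 in the libraries labelled AKO, highest in replicates 14 and 19, and 1070 to 3300 in WT, where Obp2a was at 0. Striatal projection neuron markers ranged from 47100 to 122000 in the libraries labelled AKO and from 32200 to 114000 in WT. In bulk tissue, fewer cells of a type and less RNA per cell cannot be told apart.

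Of 15183 genes tested with limma, 120 passed an adjusted p of 0.05, which is 0.790% of those tested. Among them 43 were higher in the libraries labelled AKO (0.283%) and 77 lower (0.507%). These shares are the background for every count of list members below. The lists were written with earlier results of these data known, so no such count is a test of a pathway or cell type. The immediate early gene list held 21 of the lower ones. The other 99 genes, 43 higher and 56 lower, are the subject here. They were mostly small differences: 8 reached 2-fold and 47 stayed under 1.2-fold, with a median of 0.29 among the higher and -0.27 among the lower genes. The median difference over all genes tested was 0.01. The groups did not overlap for 19 genes (0.125%), 8 higher (0.0527%) and 11 lower (0.0724%).

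**Figure D1:**
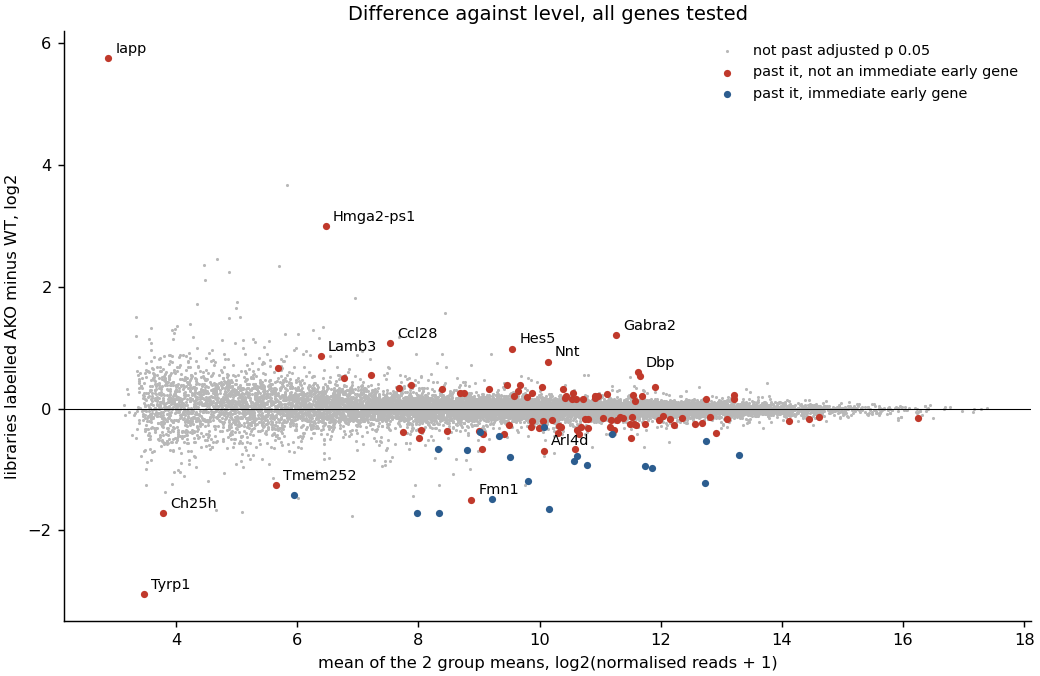
Difference (libraries labelled AKO minus WT, log2) against the mean log2 level of each of the 15183 genes tested. Red points passed adjusted p 0.05 and are not immediate early genes, blue points passed and are, and grey points did not pass. Apart from Iapp and Hmga2-ps1, the highest red point is Gabra2 at 1.21.

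The count depended on single libraries and on what was held constant. It fell to 62 without replicate 8 of the libraries labelled AKO and rose to 206 without replicate 15. It was also over 1.5 times smaller without replicate 13 of that group (78), and without WT replicates 14 (77) and 21 (73). Without replicates 14 and 19 of the libraries labelled AKO, which stood apart in olfactory mucosa markers, 62 passed, 57 of them among the 120. Of the 99 genes beyond the immediate early list, 39 kept an adjusted p under 0.05 in all 20 fits that left out one library. Against WT libraries numbered 11 to 15 alone and against those numbered 21 to 25 alone, 17 passed both times. Among genes described below, Ch25h, Dbp, Cdkn1a and Ubash3b did not pass against 21 to 25 alone (limma adjusted p 0.108 to 0.175). Pcsk1 and Ide did not pass against 11 to 15 alone (limma adjusted p = 0.104 and 0.0622). These are examples and not all such genes. With the mean level of myelin markers as a covariate, 26 genes passed, 22 of them among the 120. With the immediate early gene level as a covariate, 4 passed: Iapp, Gabra2, Nnt and Fmn1. That level did not overlap between the groups, with a mean z-score of -1.16 to -0.31 in the libraries labelled AKO, against 0.25 to 1.09 in WT, so it and the label cannot be told apart.

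Among receptors and metabolic enzymes, Gabra2 and Nnt showed the clearest separation. Gabra2, the alpha-2 subunit of the inhibitory GABA-A receptor, lay at 11.67, 11.86 and 12.12 (lowest, median and highest) in the libraries labelled AKO and at 10.48, 10.63 and 10.99 in WT. No library of either group reached the other. The rise was 1.21 (SE 0.06, limma adjusted p = 4e-13). It was the only one of 14 tested GABA-A receptor genes to pass. Nnt, the mitochondrial transhydrogenase that makes NADPH from NADH, lay at 10.46, 10.51 and 10.59 in the libraries labelled AKO and at 9.64, 9.70 and 9.92 in WT. Again the groups were apart, and Nnt rose by 0.77 (SE 0.04, limma adjusted p = 1.3e-12). None of the other 27 tested genes of mitochondrial NADPH supply and antioxidant defence passed, and their list had a median of 0.04.

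Gabra2 and Nnt belong to a list of genes in which C57BL/6 substrains are known to differ. Of its 9 tested members, 3 rose (33.3%), against 0.283% of all genes tested, and the list's median was 0.30. The third was Ide, the insulin-degrading enzyme, which also cleaves amylin. Ide was at 11.75, 11.93 and 12.03 in the libraries labelled AKO and at 10.88, 11.50 and 11.97 in WT, so the ranges overlapped. Its rise was 0.54 (SE 0.11, limma adjusted p = 0.018). Fgfbp3, a carrier of fibroblast growth factors in the same list, differed by 0.43 with a limma adjusted p of 0.0601. The list was written with earlier results of these data known, so its share of rises is not a test of strain. Strain is not in the labels, and strain and label cannot be told apart here.

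Ccl28, a chemokine of epithelial surfaces, lies 215 kb from Nnt on chromosome 13, with 4 tested genes between them (GENCODE M21, GRCm38, while the files name no build). It was at 7.80, 8.07 and 8.39 in the libraries labelled AKO and at 5.86, 7.07 and 7.82 in WT. The ranges overlapped slightly, and Ccl28 rose by 1.07 (SE 0.17, limma adjusted p = 0.0021). On chromosome 2, Fmn1 and Scg5 lie 59.6 kb apart and moved in opposite directions. Fmn1, a formin that builds unbranched actin filaments, was at 7.55, 8.13 and 8.41 in the libraries labelled AKO and at 9.36, 9.64 and 9.73 in WT, with no overlap. It fell by 1.49 (SE 0.08, limma adjusted p = 3.5e-12). Scg5 encodes 7B2, the chaperone of prohormone convertase 2 in secretory granules. Its level was 13.15, 13.32 and 13.46 in the libraries labelled AKO, against 12.96, 13.08 and 13.19 in WT, a rise of 0.23 (SE 0.04, limma adjusted p = 0.0014). Pcsk2, which encodes that convertase, differed by 0.14 and did not pass (limma adjusted p = 0.348).

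**Figure D2:**
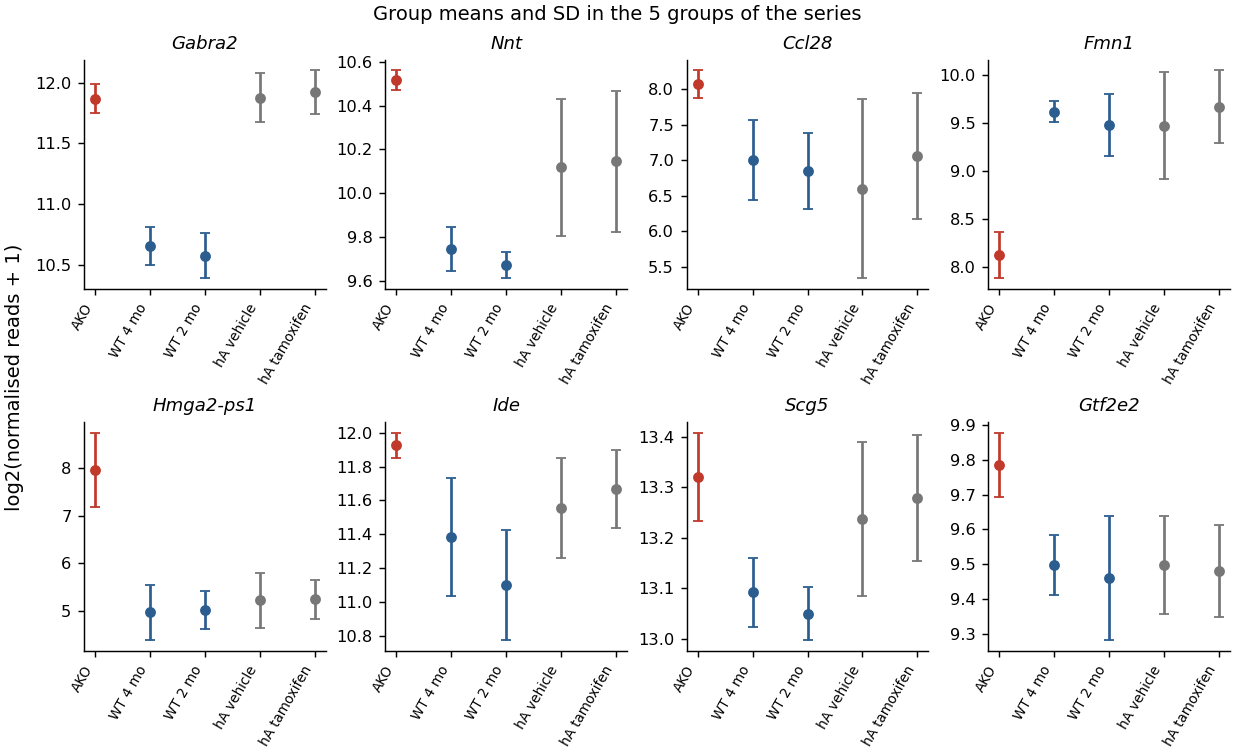
Mean log2 level with SD of 8 genes in each of the 5 groups (n = 10 each, 9 for WT at 2 months; hA, conditional human amylin transgene). Gabra2 in both transgenic groups lies at the level of the libraries labelled AKO, whereas Fmn1, Hmga2-ps1 and Gtf2e2 in them lie near WT.

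The other groups of the series placed these genes differently. Gabra2 averaged 11.87 ± 0.12 in the libraries labelled AKO, 11.88 ± 0.20 with vehicle and 11.92 ± 0.18 with tamoxifen in transgenic mice, against 10.66 ± 0.15 in WT after 4 months and 10.58 ± 0.18 after 2 (SD). Nnt in the transgenic groups (10.12 ± 0.31 and 10.15 ± 0.32) lay between the libraries labelled AKO (10.52 ± 0.04) and WT at 4 months (9.75 ± 0.10), with a wide spread. Scg5 likewise averaged 13.24 ± 0.15 with vehicle and 13.28 ± 0.13 with tamoxifen. Fmn1 stood at 8.12 ± 0.24 in the libraries labelled AKO, 9.47 ± 0.56 in the vehicle group, 9.66 ± 0.38 in the tamoxifen group and 9.61 ± 0.11 in WT at 4 months.

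Hmga2-ps1, a pseudogene of the chromatin protein gene Hmga2, had the second largest rise. It was at 6.12, 7.90 and 8.90 in the libraries labelled AKO and at 3.82, 5.0 and 5.68 in WT, without overlap. The difference was 3.0 (SE 0.29, limma adjusted p = 1.7e-06). Assignment of reads between the pseudogene and its parent is uncertain. Hmga2 itself was too low to test, with a highest level of 2.68 in the libraries labelled AKO, against 1.79 in WT.

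In the Notch pathway, cell contact frees an intracellular fragment that acts with the DNA-binding protein RBPJ. Hes5 and Nrarp of this pathway rose. Hes5, a repressor that Notch switches on in neural precursors and astrocytes, was at 9.65, 10.003 and 10.38 in the libraries labelled AKO and at 8.33, 9.26 and 9.73 in WT. All 10 libraries labelled AKO lay above the WT median. Hes5 rose by 0.98 (SE 0.18, limma adjusted p = 0.013). Nrarp, a feedback inhibitor of Notch that is itself a Notch target, was at 10.07, 10.19 and 10.34 in the libraries labelled AKO and at 9.59, 9.87 and 10.14 in WT. It rose by 0.36 (SE 0.06, limma adjusted p = 0.002). The other 23 of 25 tested genes in the Notch list did not pass (8.0% passed, against 0.790% of all genes tested). The list's median was 0.05. Maml3, a mastermind coactivator of Notch that the list does not hold, fell by 0.42 (limma adjusted p = 0.042). That call was lost in 16 of the 20 fits that left out one library. With Maml3 counted, the Notch genes that passed went both ways.

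The 250 bases before the start of Hes5 are shown because they hold matches to the RBPJ motif, searched as GTGGGAA on both strands. The sequence is from RefSeq (GRCm38.p6, plus strand, chr4:154960673-154960922), with the 2 matches in capitals.
Hes5: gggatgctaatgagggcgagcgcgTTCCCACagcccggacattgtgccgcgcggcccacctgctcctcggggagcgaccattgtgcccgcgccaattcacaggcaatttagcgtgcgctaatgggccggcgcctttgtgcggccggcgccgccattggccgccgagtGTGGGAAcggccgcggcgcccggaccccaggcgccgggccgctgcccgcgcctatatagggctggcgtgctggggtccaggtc
Of 4 motifs searched, this one was present in the promoter windows (250 bases before to 50 after the start) of 3 of 36 higher genes (8.33%) and 5 of 59 lower genes, immediate early genes included (8.47%), against 7.5% of 11987 tested genes with a promoter sequence. Nrarp had no match in the 250 bases before its start.

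**Figure D3:**
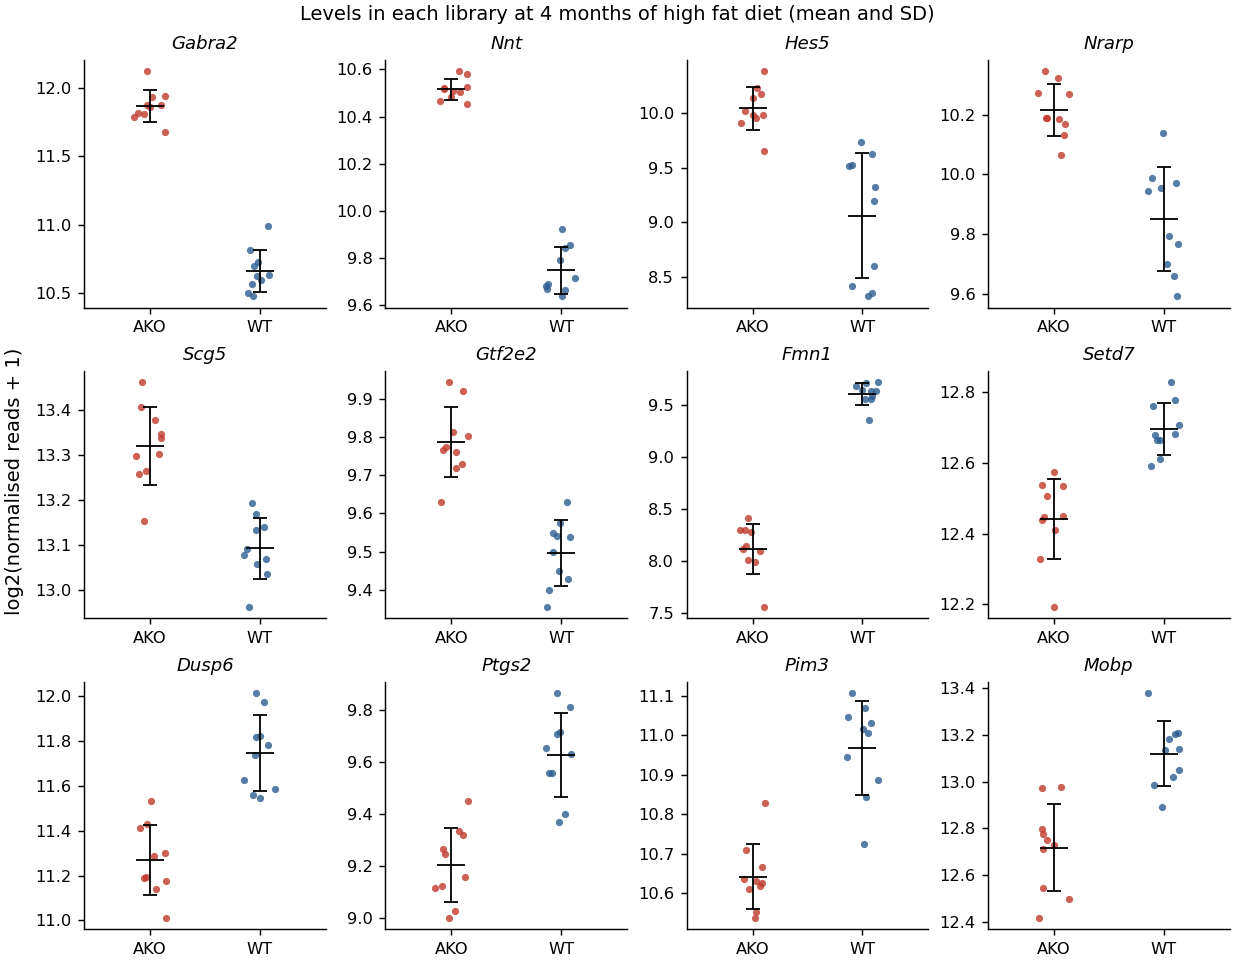
Log2 level of 12 genes in each library, with the libraries labelled AKO left of WT in each panel. Points are libraries (n = 10 each), and bars are the mean and SD. Gabra2, Nnt, Gtf2e2, Fmn1, Setd7 and Dusp6 do not overlap between the groups, although the ranges of Gtf2e2 all but touch.

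Among feedback inhibitors of signalling that neuronal activity induces, Dusp6 and Dusp1 fell. Dusp6, the phosphatase that switches off the kinases ERK1 and ERK2, was at 11.01, 11.24 and 11.53 in the libraries labelled AKO and at 11.55, 11.76 and 12.02 in WT. The groups did not overlap, and Dusp6 fell by 0.48 (SE 0.07, limma adjusted p = 0.00042). Dusp1, a nuclear phosphatase of the same family that is also an immediate early gene, fell by 0.87 (SE 0.17, limma adjusted p = 0.017). Against WT libraries numbered 21 to 25 alone, Dusp1 differed by -0.48 and did not pass (limma adjusted p = 0.157). These were the 2 that passed of 18 tested phosphatase and Sprouty genes (11.1%, against 0.790% of all genes tested). Of the 18, 17 had a negative difference, with a median of -0.14. Their summed reads did not overlap, at 30300 to 35300 in the libraries labelled AKO, against 36100 to 38700 in WT. Pim3, a serine/threonine kinase, fell by 0.33 (SE 0.05, limma adjusted p = 0.00038). Arl4d, a small GTPase of the ARF family, was at 9.45, 9.73 and 10.03 in the libraries labelled AKO and at 9.86, 10.46 and 10.98 in WT. It fell by 0.69 (SE 0.11, limma adjusted p = 0.003).

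Of 25 tested slower effectors of activity, 3 fell, with a list median of -0.09. Ptgs2, the inducible cyclooxygenase that starts prostaglandin synthesis, was at 9.0, 9.20 and 9.45 in the libraries labelled AKO and at 9.37, 9.64 and 9.86 in WT. It fell by 0.42 (SE 0.07, limma adjusted p = 0.0013). Pcsk1, the convertase that cuts prohormones in secretory granules, was at 9.99, 10.49 and 10.74 in the libraries labelled AKO and at 10.59, 10.87 and 11.10 in WT. It fell by 0.42 (SE 0.08, limma adjusted p = 0.0097). Bdnf, a growth factor for synapses, fell by 0.35 (SE 0.08, limma adjusted p = 0.045). That call was lost in 17 of 20 fits that left out one library. The fall of Bdnf was 0.19 against WT libraries numbered 11 to 15 alone and 0.50 against those numbered 21 to 25 alone. Ch25h, which makes the signalling sterol 25-hydroxycholesterol, was a low gene at 1.2, 3.18 and 4.22 in the libraries labelled AKO, against 3.19, 4.65 and 5.47 in WT. It fell by 1.72 (SE 0.35, limma adjusted p = 0.017). Like Tyrp1 below, Ch25h passed the filter on low reads mainly through WT, so its p-value is not independent of the higher WT level.

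Of the 59 lower genes with a promoter sequence, immediate early genes included, 4 (6.78%) held the cyclic AMP response element TGACGTCA, the site of the activity-regulated factor CREB, searched on both strands. One of these, Dusp1, is an immediate early gene. None of 36 higher genes held it, and 3.4% of all 11987 promoters did. The E-box CACGTG was in 16.9% of the lower and 5.56% of the higher genes, against 11.3% of all promoters. The CArG box of serum response factor was in 1.69% of the lower and 2.78% of the higher genes, against 1.59% of all. The stretches around the 4 matches are shown 5′ to 3′ on each gene's strand (RefSeq, GRCm38.p6), with the element in capitals, at chr11:101665489-101665540 for Arl4d, chr13:75089753-75089812 for Pcsk1, chr17:26508582-26508641 for Dusp1 and chr19:34475176-34475235 for Ch25h.
Arl4d: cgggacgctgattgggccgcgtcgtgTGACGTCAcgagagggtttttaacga
Pcsk1: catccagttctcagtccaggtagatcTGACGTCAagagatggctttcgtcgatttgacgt
Dusp1: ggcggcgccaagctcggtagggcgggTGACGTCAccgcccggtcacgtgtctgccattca
Ch25h: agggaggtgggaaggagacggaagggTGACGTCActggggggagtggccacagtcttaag
A match describes the letters in this window and is not evidence of binding.

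Of the circadian clock, 2 of 19 tested genes rose and 1 fell (15.8% passed, against 0.790% of all genes tested), with a list median of 0.01. Nr1d1, the nuclear receptor REV-ERB alpha that represses the clock activator gene Arntl, was at 11.94, 12.07 and 12.40 in the libraries labelled AKO and at 11.55, 11.76 and 11.88 in WT. The groups did not overlap, and Nr1d1 rose by 0.35 (SE 0.05, limma adjusted p = 0.00038). Nr1d1 overlaps Thra on the other strand, and Thra differed by 0.03. Dbp, a transcriptional activator of clock output genes, rose by 0.59 (SE 0.10, limma adjusted p = 0.0038). Nfil3, a repressor acting on the same sites as Dbp, was at 8.48, 8.74 and 8.99 in the libraries labelled AKO and at 8.96, 9.32 and 9.88 in WT. It fell by 0.66 (SE 0.10, limma adjusted p = 0.00096). Arntl differed by -0.24 and did not pass (limma adjusted p = 0.064). Collection time is not in the labels, and its part in these differences was not tested.

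Among glucocorticoid-induced genes, 2 of 17 tested fell (11.8%, against 0.507% of all genes tested), and the list's median was -0.22. Cdkn1a, the cell cycle inhibitor p21, fell by 0.67 (SE 0.14, limma adjusted p = 0.025), a call lost without replicate 8 of the libraries labelled AKO (adjusted p = 0.0513). Pdk4 fell by 0.37 (limma adjusted p = 0.044), and its call was lost in 15 of 20 fits that left out one library. Pdk4 and Pdk2 encode kinases that shut off pyruvate dehydrogenase, and Ldhb encodes the heart-type lactate dehydrogenase subunit. Pdk2 and Ldhb each fell by 0.13 (limma adjusted p = 0.033 for both), and these 3 were the members that passed of 25 tested glycolysis and lactate genes, whose median was -0.02. The calls of Pdk2 and Ldhb were lost in 10 and 12 of the 20 fits. Ldhb lies 186 kb from Iapp on chromosome 6, with 4 tested genes between them. Whether the fall of Ldhb is tied to that position was not tested. Acss2, which makes acetyl-CoA from acetate, fell by 0.15 (limma adjusted p = 0.038), a call lost in 15 of the 20 fits. Acat2, a thiolase at the entry to cholesterol synthesis, rose by 0.20 (SE 0.04, limma adjusted p = 0.0056), and it was the 1 member that passed of 25 in that list.

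**Figure D4:**
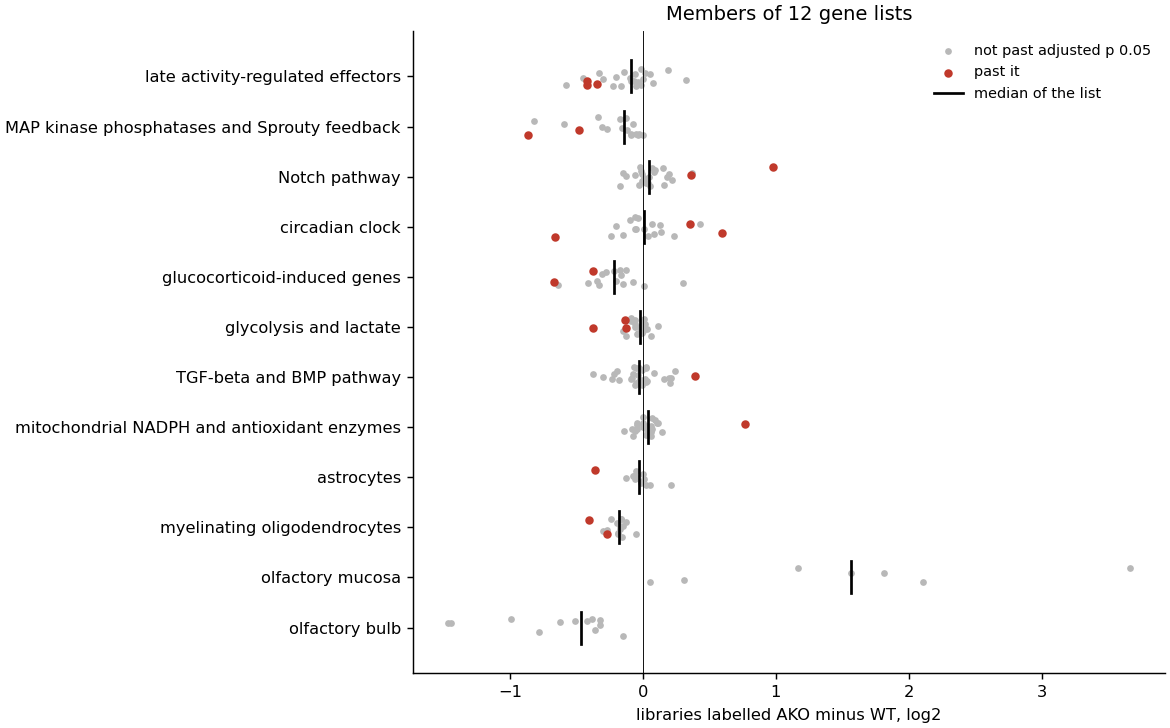
Difference (libraries labelled AKO minus WT, log2) of each tested member of 12 gene lists, with members past adjusted p 0.05 in red and the list median as a black bar. All 16 myelin markers and all 12 olfactory bulb markers lie below zero, while no olfactory marker passed the test.

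Among markers of myelinating oligodendrocytes and astrocytes, the 3 that passed were lower. All 16 tested markers of myelinating oligodendrocytes had a negative difference, with a median of -0.18, and 2 passed (12.5%, against 0.790% of all genes tested). Mobp, a structural protein of compact myelin, was at 12.42, 12.74 and 12.98 in the libraries labelled AKO and at 12.89, 13.14 and 13.38 in WT. It fell by 0.40 (SE 0.07, limma adjusted p = 0.003). Cldn11, which forms the tight junctions of the myelin sheath, fell by 0.27 (SE 0.06, limma adjusted p = 0.047), and its call was lost in 17 of the 20 fits. Summed myelin markers were 142000 to 200000 in the libraries labelled AKO, against 178000 to 217000 in WT, so the ranges overlapped. With the myelin marker level as a covariate, Mobp differed by -0.19 and did not pass (limma adjusted p = 0.233). That level includes Mobp itself, so a smaller difference was built into this fit. Gjc3, the connexin 29 of oligodendrocytes, fell by 0.17 (limma adjusted p = 0.042), a call lost in 13 of the 20 fits. Gjb6, the connexin 30 of astrocytes, fell by 0.36 (SE 0.08, limma adjusted p = 0.03), with its call lost in 8 of them. It was the 1 of 14 tested astrocyte markers to pass, and the list's median was -0.03. Markers of other cells and regions also leaned one way with none past the threshold. Differences were negative for 13 of 14 endothelial markers (median -0.13) and 12 of 12 olfactory bulb markers (median -0.46). They were positive for 14 of 15 striatal markers (median 0.36) and 13 of 16 microglial markers (median 0.06). All 7 tested olfactory mucosa markers were also positive, with a larger median of 1.57. The part of these markers in the other results was tested only by the covariate fits and by leaving out libraries.

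**Figure D5:**
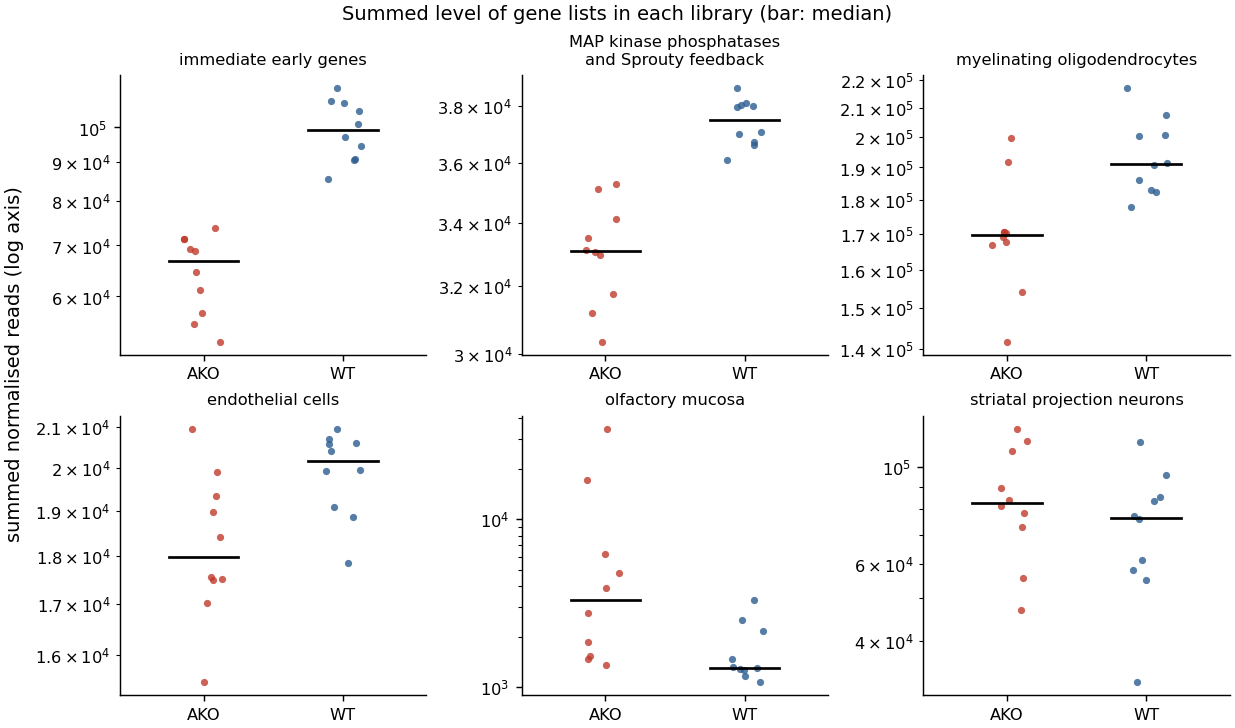
Summed normalised reads (log axis) of 6 gene lists in each library, with the libraries labelled AKO left of WT and the median as a bar. The immediate early and phosphatase lists do not overlap between groups, and 2 libraries labelled AKO stand above the rest in olfactory mucosa markers.

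The next genes belong to no list and were gathered from those that passed. None of 33 tested potassium channel genes and none of 41 tested guidance genes in the lists passed, with medians of -0.07 and -0.06. Nefh, the heavy neurofilament subunit, fell by 0.26 (limma adjusted p = 0.032), and Ina, the neurofilament partner alpha-internexin, by 0.24 (limma adjusted p = 0.028). Leaving out one library ended the call of Nefh in 11 of 20 fits, and that of Ina in 4, without WT replicate 21 or without replicate 6, 8 or 19 of the libraries labelled AKO (adjusted p at most 0.0576). Unc5b, a receptor for the guidance cue netrin, fell by 0.31 (SE 0.07, limma adjusted p = 0.025), a call lost without replicate 8 of the libraries labelled AKO (adjusted p = 0.0537). Kcng4, a potassium channel subunit that modifies other subunits, was at 7.16, 7.78 and 8.08 in the libraries labelled AKO and at 7.93, 8.27 and 8.53 in WT. It fell by 0.48 (SE 0.11, limma adjusted p = 0.028), with the call lost without WT replicate 12, 21 or 22 or without replicate 6 of the libraries labelled AKO (adjusted p at most 0.0562). Kcnab2, an auxiliary potassium channel subunit, fell by 0.17, with its call lost in 17 of them. Pcdhgb1 (-0.35) shares exons with the other gamma protocadherins and Dlx1as (-0.33) overlaps Dlx1, so the assignment of their reads is uncertain. The call of Pcdhgb1 was lost without WT replicate 21 or replicate 8 of the libraries labelled AKO (adjusted p at most 0.0507).

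Some genes that passed but belong to no list act in the nucleus or in translation. Setd7, a lysine methyltransferase, was at 12.19, 12.45 and 12.57 in the libraries labelled AKO and at 12.59, 12.68 and 12.83 in WT, with no overlap. It fell by 0.26 (SE 0.04, limma adjusted p = 0.0021). Setd7 lies 125 kb from Maml3 on chromosome 3 with 0 tested genes between them. Smarca4, the motor subunit of the BAF chromatin remodelling complex, fell by 0.15, and Gmeb1 and Gmeb2, DNA-binding proteins of the glucocorticoid modulatory element, fell by 0.20 and 0.21. Those 3 calls were lost in 10, 5 and 7 of the 20 fits. Gtf2e2, a subunit of the general transcription factor TFIIE, was at 9.63, 9.77 and 9.94 in the libraries labelled AKO and at 9.36, 9.52 and 9.63 in WT. The groups did not overlap but all but touched, at 9.6305 (lowest library labelled AKO) and 9.6304 (highest WT library). Gtf2e2 rose by 0.29 (SE 0.04, limma adjusted p = 0.001). Denr, which helps ribosomes restart after short upstream reading frames, rose by 0.13 (limma adjusted p = 0.031), and Nudt11, which removes phosphate from inositol pyrophosphates, by 0.15 (limma adjusted p = 0.017). Neither overlapped between the groups, although the call of Denr was lost in 6 of the 20 fits.

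In the lists of cytosolic and endoplasmic reticulum chaperones, the members that passed were lower. Hspa8, the constitutive cytosolic HSP70, fell by 0.15 (limma adjusted p = 0.033), and the small heat shock protein gene Cryab by 0.26 (limma adjusted p = 0.049). They were 2 of 21 tested cytosolic chaperones (9.52%, against 0.507% of all genes tested that fell). Of the 21, 20 had a negative difference, with a median of -0.11. Calr, the calcium-binding chaperone calreticulin of the endoplasmic reticulum, fell by 0.21 (SE 0.04, limma adjusted p = 0.025), the 1 of 20 in its list. The calls of Hspa8 and Cryab were lost in 14 and 16 of the 20 fits, and that of Calr without replicate 8 of the libraries labelled AKO or WT replicate 21 (adjusted p at most 0.0512). Calr differed by -0.09 against WT libraries numbered 11 to 15 alone and by -0.32 against those numbered 21 to 25 alone. Cryab differed by -0.11 and -0.41 in the same fits.

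Several genes of low or moderate level changed, by amounts that differed widely. Tyrp1, an enzyme of melanin synthesis, was at 0.96, 1.22 and 4.36 in the libraries labelled AKO and at 3.14, 4.50 and 7.03 in WT. It fell by 3.05 (SE 0.52, limma adjusted p = 0.003), the largest fall of all, from few reads. Most libraries labelled AKO lay below the equivalent of 10 reads that the filter asks for. Tyrp1 was therefore tested mainly because it was higher in WT, and its p-value is not independent of that. Tmem252, a membrane protein gene, fell by 1.26 (SE 0.29, limma adjusted p = 0.039), a call lost in 15 of 20 fits that left out one library. Lamb3, the laminin beta-3 chain of basement membranes, was at 6.05, 6.88 and 7.15 in the libraries labelled AKO and at 4.72, 6.07 and 6.44 in WT. It rose by 0.86 (SE 0.18, limma adjusted p = 0.023) and overlaps G0s2 and Hsd11b1 on the other strand. Against WT libraries numbered 21 to 25 alone, Lamb3 differed by 0.49 and did not pass (limma adjusted p = 0.132). Bmp2, a secreted ligand of the TGF-beta family, rose by 0.39 (SE 0.09, limma adjusted p = 0.027), the 1 of 33 tested genes of its pathway to pass. The call of Bmp2 was lost without WT replicate 14 or replicate 13 of the libraries labelled AKO (adjusted p at most 0.0519). Spint2, an inhibitor of serine proteases, rose by 0.38 (SE 0.07, limma adjusted p = 0.008), and Amz1, a metallopeptidase, by 0.39 (SE 0.07, limma adjusted p = 0.01).

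Among the other genes named by the size of their difference, Efcab10, a gene for an EF-hand protein, rose by 0.66 (limma adjusted p = 0.028), and its call was lost without WT replicate 14 or 21 or without replicate 8 or 21 of the libraries labelled AKO (adjusted p at most 0.0586). Myom3, which encodes a myomesin of the muscle M-band, rose by 0.54 (limma adjusted p = 0.027). That call was lost without WT replicate 14 or 21 or without replicate 7, 8 or 19 of the libraries labelled AKO (adjusted p at most 0.0539). Ubash3b, a phosphatase that dampens tyrosine kinase signalling, fell by 0.40 (limma adjusted p = 0.018) and passed in all 20 fits. Fxyd5, a regulator of the sodium pump, fell by 0.36 (limma adjusted p = 0.039), with its call lost in 13 of them. The immediate early genes Cyr61 and Atf3 were each the 1 member that passed in another list, of 18 tested matricellular genes (-1.72) and of 20 tested stress response genes (-1.43). Their calls were lost in 6 and 9 of the 20 fits.

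No member passed in 25 of the 46 lists. These held glutamate receptors (29 tested, median -0.05), insulin and IGF signalling (29 tested, median -0.04), neuropeptides and their receptors (34 tested, median 0.06) and microglial markers (16 tested, median 0.06). Ribosomal protein genes all had a positive difference (37 of 37, median 0.08) and none passed. Over all genes tested, the 95% interval of the difference reached a median of 0.12 to either side.

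Of 118 called genes with a position, 26 (22%) had another called gene within 1 Mb, against 17.8% of 15082 tested genes.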

How the data were processed

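Per the labels' protocols, frontal cortex RNA was made into libraries with the Illumina TruSeq Stranded mRNA kit. The authors deposited log2 values of 24495 genes in 1 table. Neither the labels nor the file name the aligner, the counter, the build or how values were normalized. In each library 99.92% to 100.0% of low values (up to 200 reads) lay within 0.1 of a whole number of reads once 2 was raised to the value and 1 subtracted, so the deposited log2 value is log2(reads/size factor + 1). Of the value columns, 1 matched no sample and was not used, 7 genes whose values were not whole reads were left out, and 27 symbols turned into dates were restored by gene ID.

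Genes with the equivalent of 10 reads in at least 10 of the 20 libraries were tested on the deposited values with limma 3.58.1 (R 4.3.3; intensity trend, robust shrinkage, Benjamini-Hochberg, two-sided, adjusted p 0.05), without covariates. No 2 libraries of a group agreed within sampling noise: the closest pair differed by a chi-square of 8.22 per gene among those labelled AKO and by 6.65 among WT. The limit for Iapp in WT covers counting error only, whereas intervals of differences rest on the spread between libraries.

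Members and lists were chosen with earlier results of these data known. Named genes were Iapp, the 15 genes that rose most and the 15 that fell most, past the threshold and outside the immediate early list (mean of at least 1 CPM, no predicted models), and up to 3 members of each of 46 lists; other genes past the threshold are named by group. Pcsk2, Thra, Arntl and Fgfbp3 did not pass and were named after their values were seen. Positions come from GENCODE M21 (GRCm38). Python 3.11.15 and pandas 2.3.3 were used for tables. Alternatives covered scaling, filters, tool, covariates, WT number runs, single libraries and a replicate block.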

Additional observations from a re-analysis of the deposited data

Results flagged for a closer look

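Among 83 groups of 10 libraries (the named genes in each group), 9 had a highest or lowest library set apart from the rest by Dixon's 95% criterion. Chance flags about 1 in 20 groups. In the libraries labelled AKO, Iapp was at 6.17 in replicate 16, with the next library at 5.86. Hmga2-ps1 was at 6.12 and Fmn1 at 7.55 in replicate 6 of that group, each the lowest. Replicate 15 was the lowest in Lamb3 (6.05) and in Pdk4 (8.36), and replicate 21 the highest in Nr1d1 (12.40). In WT, Lamb3 was at 4.72 in replicate 13, Fmn1 at 9.36 in replicate 24 and Bdnf at 10.21 in replicate 12, each the lowest of its group.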

How the results depend on the processing

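Gabra2, Nnt and Fmn1 passed the threshold in all 37 alternative settings, and Iapp in all 36 in which it was tested. Over the 42 named genes, 1078 of 1551 values kept direction and side of the threshold, 463 kept direction alone and 10 turned. The count of calls stayed within 1.5 times of 120 (94 to 157) with limma-voom, other scalings, filters and pseudocounts, with 93 to 120 of the same genes. Against WT libraries 11 to 15 alone 139 genes passed, 59 of them among the 120, and against 21 to 25 alone 157 passed, 49 of them among the 120. Fitting all 49 libraries in 1 model gave 50. Leaving out 1 library gave 62 to 206, and leaving out replicates 14 and 19 of the libraries labelled AKO gave 62. Olfactory bulb and striatal marker levels as covariates gave 216, and the myelin level gave 26. The immediate early gene level gave 4 calls, and that level together with the myelin level also gave 4; both fits were added after seeing the data. The 10 turned values all came from these last 2 fits, none past the threshold. With the immediate early level alone, Hes5 was at -0.021, Arl4d at 0.067, Dusp6 at 0.053, Dusp1 at 0.34, Cyr61 at 0.71 and Atf3 at 0.14. With both levels, Tmem252 was at 0.085, Arl4d at 0.08, Dusp1 at 0.32 and Cyr61 at 0.65. Dusp1, Cyr61 and Atf3 are themselves part of the immediate early level, so their values in these fits are not independent of it. The immediate early level did not overlap between the groups, so these fits leave little to separate it from the label. The cause of the other changes in count was not tested.

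The replicate block over the 5 shared title numbers (10 libraries) gave 12 calls, against 13 in the same libraries with no replicate block. Deviations of same-numbered libraries correlated at 0.049, -0.234, -0.288, 0.142 and 0.106, so no pairing by number was detected. Pairing with a small effect was not excluded. Depth limits genes near the floor of 10 reads, such as Tyrp1 and Ch25h. These genes and Iapp passed the filter mainly or wholly through the group in which they were higher.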
